A study of Rattus norvegicus with 18 samples.

Results

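Collagen genes were followed in RNA-seq counts of rat brain. The count table held 42 protein-coding genes whose symbol is Col, a type number, the letter a and a chain number, out of 34873 genes listed. Of 44 rows with such a symbol, 1 was left out because the table does not call it protein-coding (Col6a3) and 1 because Col23a1 has a second, lower row. The 42 genes were grouped into 11 of fibrillar collagens, 7 of basement membrane collagens and 24 of other types. Of these, 37 had enough counts to be tested, and the other 5 (Col6a4, Col6a5, Col10a1, Col15a1 and Col28a1) are described by their counts.

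The 3 groups held 6 libraries each. NC rats were wild-type and untreated. The CO group, also wild-type, inhaled carbon monoxide (CO), by the design text at 1000 ppm for 40 min and then at 3000 ppm for 20 min, to a carboxyhemoglobin above 60%. The CLCF1 group had inhaled CO as well and carries the genotype label CLCF1knock-down. CLCF1 is a cytokine of the interleukin-6 family. By the design text, lentivirus lowered or raised CLCF1 in macrophages grown from bone marrow, which were given to rats that had received chloroquine phosphate liposomes. The labels do not say which groups received liposomes or cells, so whether the knock-down is all that sets CLCF1 and CO rats apart cannot be told. They also give no strain, age, brain region or time after exposure.

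Collagens are the main structural proteins of extracellular matrix. Their chains wind around each other into a rod, and the chains a cell makes decide the type. In brain, fibrillar collagens lie mainly in the meninges and around larger vessels, where fibroblasts make them, whereas type IV collagen forms the sheet of the vascular basement membrane beneath endothelium and pericytes. Other types sit on the surface of fibrils, form open networks, or span the cell membrane, and some of these are made by neurons.

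Total counts ran from 15.1 to 20.3 M per library. Clcf1 itself had 1 to 7 counts in NC libraries, 80 to 118 in CO and 0 to 3 in CLCF1. Neuronal, astrocytic, oligodendrocytic and microglial markers were found in full (10 of 10, 8 of 8, 8 of 8 and 8 of 8 genes, none of them at 0 in all libraries). Libraries 3 to 6 of each group may not be independent of libraries 1 and 2. A gene lacked counts in both libraries 1 and 2 of a group 42660 times, and libraries 3 to 6 of that group then held a count 0 times. P-values below treat all 6 libraries as separate samples, which the labels do not state, so they measure only the spread between these libraries. Fits that leave out 1 library rest on the same reading. Fold changes of collagen genes that passed are therefore also given in libraries 1 and 2 alone, where edgeR called 0 collagen genes in each of the 3 comparisons. At an unadjusted p under 0.05 it found 6 of 37 there between CO and NC (3.53% of all genes), 4 between CLCF1 and CO (4.86%) and 3 between CLCF1 and NC (2.49%). After adjustment 4, 8 and 2 genes of all kinds passed, or 0.0238%, 0.0476% and 0.0119%. Levels are CPM (counts relative to the TMM-scaled total of the library). Means carry the SD of 6 libraries, and log2 fold changes carry a standard error after the ±. That error was worked back from edgeR's test, as the absolute log2 fold change over the square root of the F statistic. Adjusted p-values are from edgeR's quasi-likelihood test over all 16581 genes tested, with a threshold of 0.05.

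Per length, 4 of the 11 fibrillar chains stood highest in untreated brain, while others such as Col2a1 and Col24a1 had rank 32 and 38 of 42. Col1a1 had 22.6 CPM per kb in NC, Col3a1 22.1, Col1a2 19.3 and Col11a2 12.2. Next came the microfibrillar type VI chains Col6a2 and Col6a1 with 8.33 and 7.30, and the basement membrane gene Col18a1, whose product gives rise to endostatin, with 6.78. The major vascular type IV chains Col4a2 and Col4a1 had 5.46 and 5.03 CPM per kb. At the other end, Col6a4, Col6a5, Col6a6 and Col10a1 had at most 0.0910 CPM per kb in any group. In the order of the 42 levels, Col1a2 had rank 3 in NC, rank 15 in CO and rank 5 in CLCF1, whereas Col3a1 and Col1a1 stayed among the first 3 in all groups. Col1a1, Col1a2 and Col3a1 together made up 40.3% of the summed collagen CPM in NC, 26.0% in CO and 34.6% in CLCF1.

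After CO, brain held less collagen RNA of several types. Of the 37 collagen genes tested between CO and NC, 8 fell, 0 rose and 29 did not pass, or 21.6% called, where 12.7% of all genes tested were called, 6.40% lower and 6.32% higher. The 8 were the fibrillar Col1a1, Col1a2 and Col27a1, the basement membrane genes Col4a5 and Col4a6, and the fibril-associated Col9a2, Col12a1 and Col16a1. At an unadjusted p under 0.05, edgeR found 2 higher (Col9a1 and Col9a3), and DESeq2 and limma-voom each called 1 higher after adjustment. The median log2 fold change was -0.36 over the 37, against 0.01 over all genes tested, and -0.38 in libraries 1 and 2 alone. In those 2 libraries both CO values lay below both NC values for 16 of 37 genes and above for 1, where 17.2% and 17.0% of all genes did so. In bulk tissue, fewer cells of a type and less RNA per cell cannot be told apart.

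**Figure D1:**
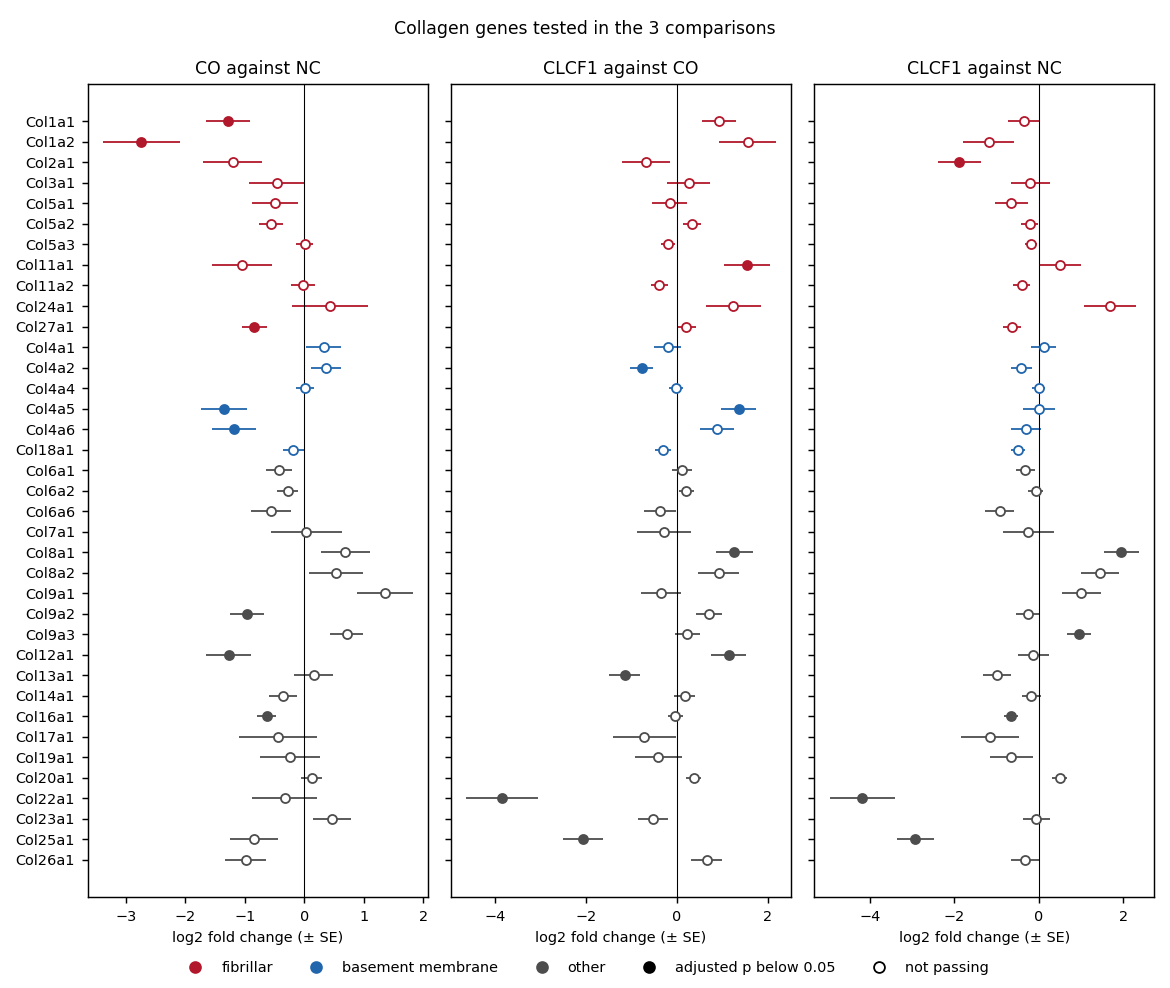
Log2 fold change (x axis, ± standard error) of the 37 collagen genes tested, by class, in the 3 comparisons, with filled points for adjusted p below 0.05. The 8 filled points of CO against NC all lie below 0, whereas the 8 of CLCF1 against CO lie on both sides, with Col22a1 at -3.85 the farthest from 0.

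Among fibrillar genes, 3 of 11 fell between NC and CO and 8 did not pass (27.3% called, against 12.7% of all genes tested). The median log2 fold change was -0.55, or -0.81 in libraries 1 and 2 alone. Col1a2, an α chain of type I collagen (chromosome 4, positions 31534225 to 31569151 in a build the table does not name), ranged from 54.3 to 123 CPM in NC, with a median of 79.6. In CO it ranged from 0.126 to 27.8, with a median of 11.1. The highest CO library thus lay below the lowest NC library. The means were 86.5 ± 27.9 CPM in NC and 12.9 ± 11.5 in CO, a log2 fold change of -2.74 ± 0.64 (edgeR adjusted p = 0.0102). This call was kept without any 1 library, and libraries 1 and 2 alone gave -2.44.

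The partner chain Col1a1 (chromosome 10, positions 82745801 to 82762789) fell as well. Its NC libraries ran from 67.2 through a median of 129 to 221 CPM and its CO libraries from 19.4 through 50.4 to 108, so the groups overlapped. The log2 fold change was -1.28 ± 0.37 (edgeR adjusted p = 0.0316), and -0.93 in libraries 1 and 2 alone. Leaving out NC library 1 or 6, or else CO library 3, 5 or 6 ended the call, with adjusted p between 0.0503 and 0.0745 by edgeR. The level of Col1a1 per length over that of Col1a2 ran from 0.420 to 2.57 in NC, with a median of 1.19. In CO it ran from 0.724 to 224, with a median of 4.55, and in CLCF1 from 0.923 to 9.71, with a median of 1.92. The extreme was CO library 3, with 2 counts of Col1a2 beside 36.7 CPM of Col1a1.

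Col27a1, a fibrillar chain known from cartilage, had 11.7 to 15.8 CPM in NC (median 13.5) and 4.73 to 11.5 in CO (median 7.53), with no overlap. Its mean went from 13.8 ± 1.65 CPM in NC to 7.69 ± 2.48 in CO (a log2 fold change of -0.84 ± 0.21 with an edgeR adjusted p = 0.0142). The call was kept without any 1 library, and libraries 1 and 2 alone gave -0.43. Col1a2 and Col27a1 were the 2 of 37 collagen genes whose CO and NC ranges lay apart, both lower in CO. Of all genes tested 6.35% had ranges apart, 3.20% lower and 3.15% higher.

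Col3a1, the chain of type III collagen found beside type I in vessel walls, turned on 1 library. Its NC libraries held 65.7 to 137 CPM, with a median of 107. In CO, 5 libraries held 19.0 to 49.4 CPM and library 5 held 269. With all libraries the log2 fold change was -0.46 ± 0.47 (edgeR adjusted p = 0.554). Without CO library 5 it was -1.47 ± 0.28 (edgeR adjusted p = 0.00456), and in libraries 1 and 2 alone -1.33. Col11a1, a chain that nucleates fibrils in cartilage, had a like pattern with CO library 3, which held 20.7 CPM against 1.07 to 7.54 in the other CO libraries and 6.39 to 20.8 in NC. Its log2 fold change was -1.05 (edgeR adjusted p = 0.172), and -1.79 ± 0.43 without that library (edgeR adjusted p = 0.0143).

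**Figure D2:**
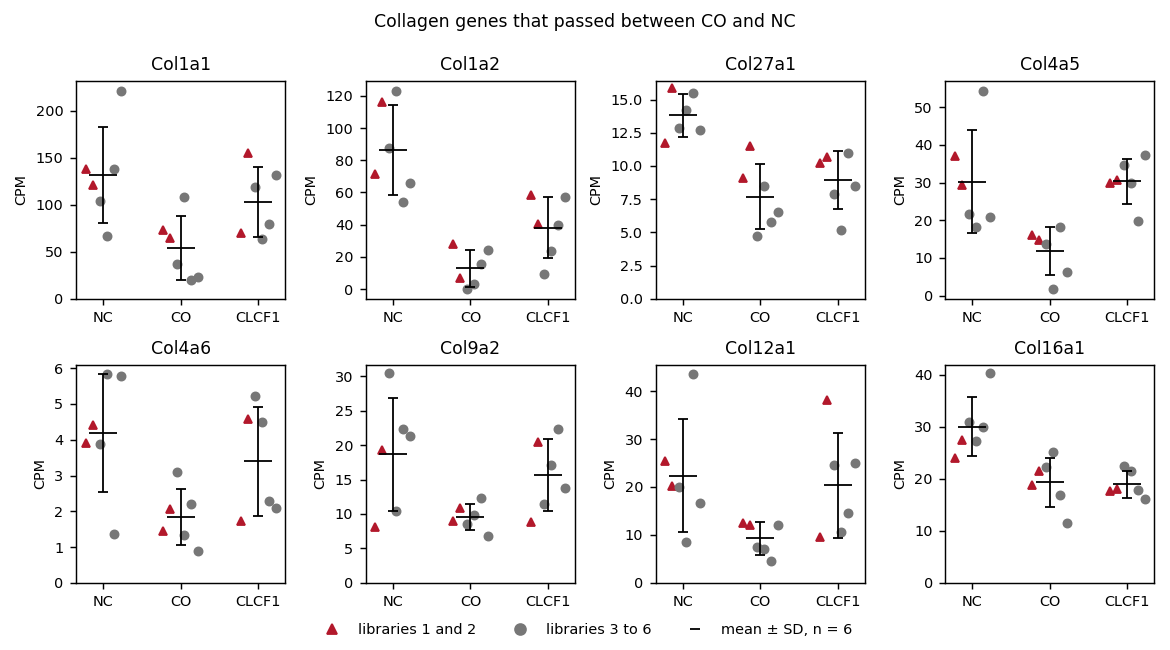
CPM (y axis) by library of the 8 collagen genes that passed between CO and NC, in NC, CO and CLCF1, with libraries 1 and 2 as red triangles, libraries 3 to 6 as gray circles, and black marks for mean ± SD (n = 6). For Col1a2 and Col27a1 every CO library lies below every NC library, and for Col4a5 every CLCF1 library lies above every CO library.

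Of 6 basement membrane genes tested between CO and NC, 2 fell and 4 did not pass (33.3% called, against 12.7% of all genes tested). The median log2 fold change was -0.09. Col4a5, a type IV chain mutated in Alport syndrome of the human kidney (chromosome X, positions 112769645 to 112983685), had 18.2 to 54.4 CPM in NC (median 25.5) and 1.78 to 18.3 in CO (median 14.3). The 2 ranges met at their edges, where the highest CO library (18.27 CPM) exceeded the lowest NC library (18.24 CPM). Its means were 30.2 ± 13.7 CPM in NC and 11.8 ± 6.39 in CO, a log2 fold change of -1.35 ± 0.38 (edgeR adjusted p = 0.0275), and libraries 1 and 2 alone gave -1.12. Leaving out NC library 1, NC library 5 or CO library 6 ended the call, with adjusted p between 0.0518 and 0.0695 by edgeR.

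Col4a6, the neighbour of Col4a5 on chromosome X (positions 112405647 to 112473822, on the other strand), had 1.36 to 5.84 CPM in NC (median 4.15) and 0.889 to 3.09 in CO (median 1.75). It fell by 1.19 on the log2 scale (standard error 0.37, edgeR adjusted p = 0.0419), and libraries 1 and 2 alone gave -1.26. Leaving out NC library 1, 2, 3, 4 or 6, or else CO library 1, 2, 4, 5 or 6 ended the call, with adjusted p between 0.0544 and 0.0841 by edgeR. NC library 5 had the lowest NC value of Col4a6 and the highest of Col4a5, so the pair did not rise and fall together library by library. Col4a1 and Col4a2, the chains of the ubiquitous type IV network, did not pass between CO and NC. Col4a1 had 33.1 ± 14.3 CPM in NC and 41.5 ± 19.4 in CO, or 0.32 ± 0.30 as log2 fold change (edgeR adjusted p = 0.498). Col4a2 had 26.9 ± 10.2 and 34.8 ± 11.8 CPM (0.37 ± 0.25, edgeR adjusted p = 0.339).

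Start regions are shown for Col1a2, the collagen gene with the largest fall in CO among those passing, and for the pair Col4a5 and Col4a6, which both fell. Each stretch is 100 bases, read 5′ to 3′ on the gene's strand from RefSeq's GRCr8 promoter entries, of which 33 of the 42 genes had one. Capitals mark the CCAAT box (in Col1a2 on the opposite strand, where it reads ATTGG), the TATA box with letters TATAAA, and the GC box with letters GGGCGG (in Col4a6 on the opposite strand, where it reads CCGCCC). Both strands were searched, and the marked motifs do not overlap. The Col1a2 stretch lies at chr4:33518307-33518406 (plus strand), beginning 250 bases before RefSeq's start. The others end at the base before that start, at chrX:109907259-109907358 (plus strand) and chrX:109905945-109906044 (minus strand).
Col1a2: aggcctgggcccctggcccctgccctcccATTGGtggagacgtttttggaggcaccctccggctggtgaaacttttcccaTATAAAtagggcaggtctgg
Col4a5: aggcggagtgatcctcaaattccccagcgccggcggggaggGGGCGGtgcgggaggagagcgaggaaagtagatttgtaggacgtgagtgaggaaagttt
Col4a6: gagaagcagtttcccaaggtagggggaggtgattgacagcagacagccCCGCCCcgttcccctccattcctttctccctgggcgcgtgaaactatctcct

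Over the 250 bases before the start, Col1a2 held 1 CCAAT and 1 TATAAA and no GGGCGG, whereas Col4a5 and Col4a6 held 1 GGGCGG each and neither of the others. Among all 27457 promoters of that length, 34.3% held CCAAT, 13.1% TATAAA and 32.4% GGGCGG. Among the 33 of collagen genes, 11 held CCAAT, 4 TATAAA and 18 GGGCGG (54.5%). The κB consensus, bound by NF-κB, was present in 3 of the 33 (9.09%) and in 6.41% of all. The core of the hypoxia response element, with letters ACGTG, was present in 2 of the 33 (6.06%) and in 16.9% of all. Col4a5 held 2 copies of it, not marked above, and Col1a2 held none. In GRCr8 the starts of Col4a5 and Col4a6 face away from a shared stretch of 1414 bases. In the count table's own build the 2 gene models lie 296 kb apart.

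Among collagens of other types, 3 of 20 fell between NC and CO and 17 did not pass. The 15.0% called were near the 12.7% of all genes tested, but all of them were lower, where 6.40% of all genes were lower. The median log2 fold change was -0.31, or -0.37 in libraries 1 and 2 alone. All 3 genes that fell belong to the fibril-associated collagens, of which 9 were tested. Col16a1 had 23.9 to 40.4 CPM in NC (median 28.7) and 11.6 to 25.2 in CO (median 20.1). The 2 groups overlapped at their edges, and the means were 30.0 ± 5.66 CPM in NC and 19.3 ± 4.77 in CO, a log2 fold change of -0.64 ± 0.17 (edgeR adjusted p = 0.0182). This was kept without any 1 library, and libraries 1 and 2 alone gave -0.37.

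Col12a1, which links fibrils in tissues under tension, had 8.48 to 43.5 CPM in NC (median 20.1) and 4.53 to 12.4 in CO (median 9.75). It fell by 1.27 on the log2 scale (standard error 0.38, edgeR adjusted p = 0.0343), and libraries 1 and 2 alone gave -0.91. Col9a2, a chain of type IX collagen, had 8.08 to 30.4 CPM in NC (median 20.3) and 6.80 to 12.3 in CO (median 9.38). It fell by 0.97 on the log2 scale (standard error 0.29, edgeR adjusted p = 0.0332), and libraries 1 and 2 alone gave -0.48. Both groups overlapped for each gene. For Col12a1 the call ended on leaving out NC library 1 or 5, or else CO library 3, 4 or 5 (edgeR adjusted p 0.0576 to 0.0910). For Col9a2 the call ended on leaving out NC library 2, 3, 5 or 6, or else CO library 1, 3 or 6 (edgeR adjusted p 0.0511 to 0.0808). The type VI chains Col6a1 and Col6a2 had log2 fold changes of -0.43 and -0.28 and did not pass.

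Marker lists of brain cell types were counted beside the collagens, where 12.7% of all genes were called. Of 17 fibroblast and meningeal markers tested, 4 fell in CO (Dcn, Lum, Aldh1a2 and Fmod), 0 rose and 13 did not pass (23.5% called). Their summed level was 933 to 1037 CPM in NC and 528 to 998 in CO, with none of the 18 markers at 0 in a whole group. CO libraries 1 to 4 had sums of 553, 528, 605 and 691 CPM, below the NC range, with 27.8, 6.96, 0.126 and 2.92 CPM of Col1a2. CO libraries 5 and 6 had sums of 998 and 971 CPM, within the NC range, with 15.2 and 24.4 CPM of Col1a2. Library 5 also held the 269 CPM of Col3a1. Of 14 pericyte and smooth muscle markers, 4 fell and 10 did not pass (28.6% called), and their sum was 291 to 378 CPM in NC and 130 to 249 in CO, with no marker at 0. Of 11 endothelial markers, 1 rose, 2 fell and 8 did not pass (27.3% called), with sums of 332 to 482 and 287 to 563 CPM, and Cldn5 is listed at 0 in all libraries. Of 10 neuronal markers 4 rose, and their sum was 5117 to 5860 CPM in NC and 6828 to 7467 in CO. Of 8 markers each, 2 ependymal and 1 astrocytic marker fell, 1 microglial marker rose and 1 fell, and no oligodendrocyte marker passed. Of 9 choroid plexus markers 1 fell. Median log2 fold changes were -1.13 for ependymal, -0.95 for choroid plexus, -0.66 for pericyte and smooth muscle and -0.39 for fibroblast and meningeal markers. Astrocytic and endothelial markers had -0.28 and -0.27, and neuronal, oligodendrocyte and microglial markers 0.16, 0.18 and 0.02. Collagen genes had -0.36, so a fall in the median was not particular to them. The part of these cells in the collagen values was not tested.

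**Figure D3:**
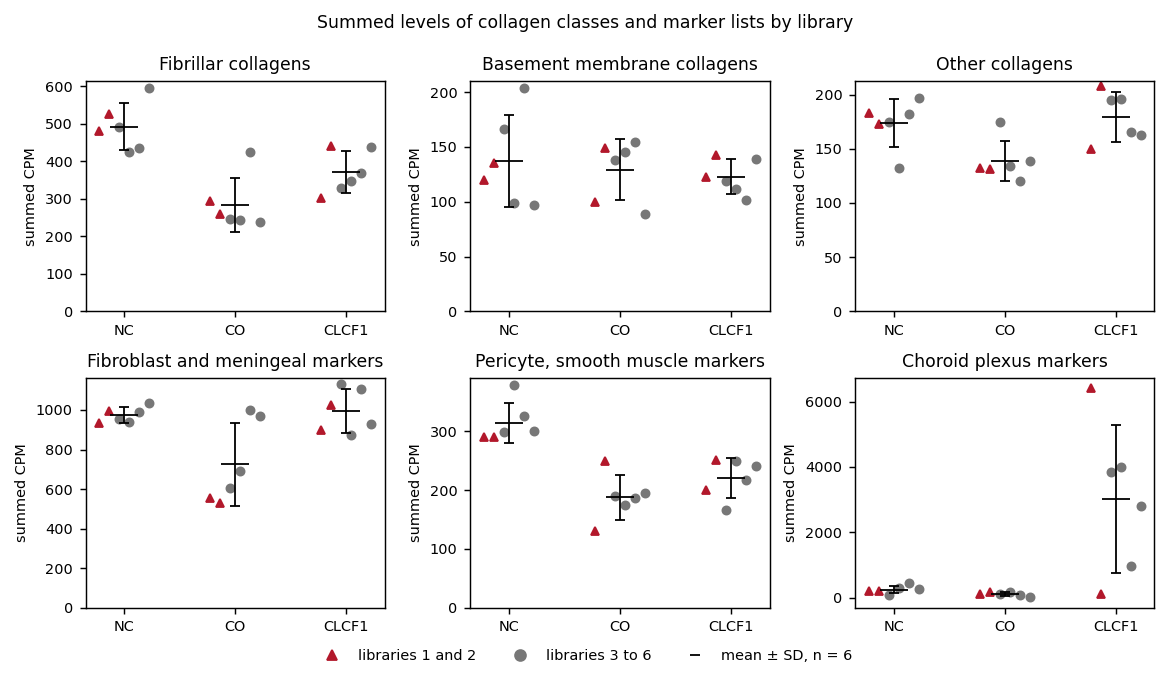
Summed CPM (y axis) by library of the 3 collagen classes and of 3 marker lists in NC, CO and CLCF1, with libraries 1 and 2 as red triangles, libraries 3 to 6 as gray circles, and black marks for mean ± SD (n = 6). Fibrillar sums run from 424 to 594 CPM in NC and from 237 to 425 in CO, and choroid plexus markers reach 6411 CPM in CLCF1.

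Summed over their 11 genes, fibrillar collagens had 492 ± 62.8 CPM in NC, 284 ± 71.7 in CO and 372 ± 57.2 in CLCF1. The highest CO sum, 424.6 CPM in library 5, came with the high Col3a1 value of that library, and without it the CO mean was 256. Basement membrane genes summed to 137 ± 41.9, 129 ± 27.9 and 123 ± 15.9 CPM, and other types to 174 ± 21.9, 139 ± 18.7 and 180 ± 23.2. The basement membrane sums of the 3 groups thus lay within each other's spread.

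Between CLCF1 and CO, collagen genes moved in both directions. With 37 tested, 4 were higher in CLCF1, 4 were lower and the other 29 did not pass, or 21.6% called, where 17.0% of all genes tested were called, 8.63% higher and 8.34% lower. The share called among collagens was thus near that of all genes. Higher in CLCF1 were Col4a5, Col8a1, Col11a1 and Col12a1, and lower were Col4a2, Col13a1, Col22a1 and Col25a1. The median log2 fold change was 0.11, against 0.00 over all genes tested, and 0.02 in libraries 1 and 2 alone. The CLCF1 and CO ranges lay apart for 1 of 37 collagen genes higher and 2 lower, where 7.12% of all genes lay apart, 3.46% higher and 3.65% lower. In libraries 1 and 2 alone they lay apart for 5 higher and 5 lower, where 16.6% and 14.0% of all genes did. The comparison shares its CO libraries with the one above. Of 17 fibroblast and meningeal markers, 6 rose in CLCF1 and 0 fell, with sums of 872 to 1132 CPM, and of 14 pericyte and smooth muscle markers 2 rose and 0 fell, with sums of 166 to 252 CPM. Endothelial markers split into 2 higher, 1 lower and 8 not passing, with sums of 320 to 378 CPM in CLCF1. Of 10 neuronal markers 1 was lower, with sums of 6278 to 6780 CPM. Of 8 markers each, 2 ependymal markers were higher and 2 oligodendrocyte markers lower, and no astrocytic or microglial marker passed. The part of these cells in the collagen values was not tested.

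Col4a5 and Col12a1 had fallen in CO and were higher in CLCF1 than in CO. Col4a5 had 19.8 to 37.3 CPM in CLCF1 (median 30.3), above every CO library (log2 fold change 1.36 ± 0.38, edgeR adjusted p = 0.0208). That call was kept without any 1 library, and libraries 1 and 2 alone gave 0.96. Col12a1 had 9.47 to 38.1 CPM in CLCF1 (median 19.5), which overlapped CO (1.14 ± 0.38, edgeR adjusted p = 0.0448, and 0.94 in libraries 1 and 2 alone). Leaving out any of CO libraries 3, 4, 5 or 6 or CLCF1 libraries 2, 3 or 6 ended the call, with adjusted p between 0.0513 and 0.119 by edgeR. Col11a1 had 11.4 to 31.8 CPM in CLCF1 (median 21.4, log2 fold change 1.55 ± 0.51, edgeR adjusted p = 0.0414, and 1.15 in libraries 1 and 2 alone). Without CO library 3 its log2 fold change was 2.30 ± 0.44, and the call ended (adjusted p 0.0587 to 0.0865 by edgeR) on leaving out any of the other CO libraries or CLCF1 libraries 2, 3, 5 or 6.

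The type I and III genes were not called between CLCF1 and CO. Col1a2 had 9.37 to 58.2 CPM in CLCF1 (median 40.3), with 4 libraries above all of CO and 2 inside its range. Its log2 fold change was 1.56 ± 0.62 (edgeR adjusted p = 0.0889), and 1.498 in libraries 1 and 2 alone. Col1a1 had 63.3 to 155 CPM (median 98.8), and its log2 fold change of 0.93 ± 0.37 did not pass (edgeR adjusted p = 0.0921), except without CO library 4 (edgeR adjusted p = 0.0288). Col3a1 had 46.9 to 124 CPM, and its log2 fold change was 0.26 ± 0.47 (edgeR adjusted p = 0.746) with all libraries and 1.25 ± 0.28 without CO library 5 (edgeR adjusted p = 0.00702).

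Col4a2 moved the other way. It had 20.4 to 50.7 CPM in CO (median 35.2) and 15.2 to 27.7 in CLCF1 (median 20.0), with overlap (log2 fold change -0.78 ± 0.25, edgeR adjusted p = 0.0376, and -0.43 in libraries 1 and 2 alone). Leaving out any of CO libraries 2, 3 or 5 or CLCF1 libraries 1, 3, 4, 5 or 6 ended the call, with adjusted p between 0.0507 and 0.0779 by edgeR. Its partner Col4a1 was at -0.20 ± 0.30 (edgeR adjusted p = 0.678). The level of Col4a1 per length over that of Col4a2 had medians of 0.93 (NC), 0.82 (CO) and 1.35 (CLCF1), with overlapping ranges.

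Among the membrane-spanning collagens, 2 of 4 fell in CLCF1 against CO (50% called, against 17.0% of all genes tested). Col25a1, a collagen of neurons whose shed ectodomain was found in amyloid plaques of human brain (chromosome 2, positions 235596123 to 235715057), had 2.87 to 10.1 CPM in NC (median 5.005) and 1.72 to 4.60 in CO (median 2.62). Its CLCF1 libraries held 0.217 to 1.61 CPM (median 0.621), below every NC and every CO library. The log2 fold change was -2.07 ± 0.44 against CO (edgeR adjusted p = 0.00437) and -2.92 ± 0.45 against NC (edgeR adjusted p = 0.000817). Both calls were kept without any 1 library, and libraries 1 and 2 alone gave -1.32 and -2.03. Between CO and NC the value of -0.85 did not pass (edgeR adjusted p = 0.168).

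Col13a1, a membrane collagen of the neuromuscular junction, had 2.15 to 5.72 CPM in CO (median 3.67) and 0.969 to 3.07 in CLCF1 (median 1.38), with overlap (log2 fold change -1.15 ± 0.34, edgeR adjusted p = 0.0245, and -0.77 in libraries 1 and 2 alone). Leaving out CO library 4 or CLCF1 library 2, 5 or 6 ended the call, with adjusted p between 0.0513 and 0.0537 by edgeR. The other 2 membrane-spanning genes, Col17a1 and Col23a1, were at -0.71 and -0.52 and did not pass. Col22a1, a fibril-associated collagen of tissue junctions (chromosome 7, positions 113015747 to 113228439), was rare in all groups. It had 68 counts over the NC libraries, 47 over CO and 3 over CLCF1, all 3 of them in CLCF1 library 1. By the ratio of counts it was 18.3-fold lower in CLCF1 than in CO (95% counting interval 5.88 to 91.8) and 23.4-fold lower than in NC (7.69 to 116). The edgeR adjusted p-values were 0.00355 and 0.00293, and libraries 1 and 2 alone gave fitted values of -2.67 and -2.69. Without CLCF1 library 1 the fitted values were -6.12 and -6.46, where CLCF1 had no count.

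Of the short-chain network collagens, Col8a1 was higher in CLCF1 than in both other groups. Col8a1, a type VIII chain of vessel walls and of the corneal basement membrane (chromosome 11, positions 44877859 to 45007891), had 0.735 to 4.40 CPM in NC (median 2.01), 0.630 to 6.93 in CO (median 3.67) and 6.28 to 11.4 in CLCF1 (median 8.97). The CLCF1 libraries lay above all of NC and overlapped CO. The log2 fold change was 1.27 ± 0.40 against CO (edgeR adjusted p = 0.0363) and 1.96 ± 0.41 against NC (edgeR adjusted p = 0.00715), and libraries 1 and 2 alone gave 1.26 and 1.44. The second call was kept without any 1 library, and the first ended (adjusted p 0.0506 to 0.0688 by edgeR) on leaving out any of CO libraries 1, 5 or 6 or CLCF1 libraries 1, 4 or 5.

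Its partner Col8a2, named after its values were seen, had 6.41 to 15.9 CPM in NC (median 11.2) and 16.2 to 38.6 in CLCF1 (median 30.7), with no overlap. In CO, library 3 held 52.9 CPM and the other libraries 5.73 to 11.8. Against NC its log2 fold change of 1.45 ± 0.45 did not pass (edgeR adjusted p = 0.05003). Against CO it was 0.92 ± 0.45 (edgeR adjusted p = 0.162) with all libraries and 1.82 ± 0.27 without CO library 3 (edgeR adjusted p = 0.000870), and libraries 1 and 2 alone gave 1.53. Choroid plexus markers were mostly higher in the CLCF1 group: 7 of 9 tested rose against CO and 6 of 9 against NC, with 0 lower in either. Of all genes tested, 8.63% were higher against CO and 4.43% against NC. The sum of the markers was 83.6 to 442 CPM in NC, 9.40 to 180 in CO and 118 to 6411 in CLCF1, and Slc4a5 had no count in CO. The lowest CLCF1 sum, in library 2, lay inside the ranges of NC and CO. That library held 31.5 CPM of Col8a2 and 6.28 CPM of Col8a1, the lowest Col8a1 value of CLCF1 and inside the CO range. The highest CLCF1 sum, in library 1, came with 27.8 CPM of Col8a2 and with the highest Col8a1 value, 11.4 CPM. The part of these cells in the type VIII values was not tested.

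**Figure D4:**
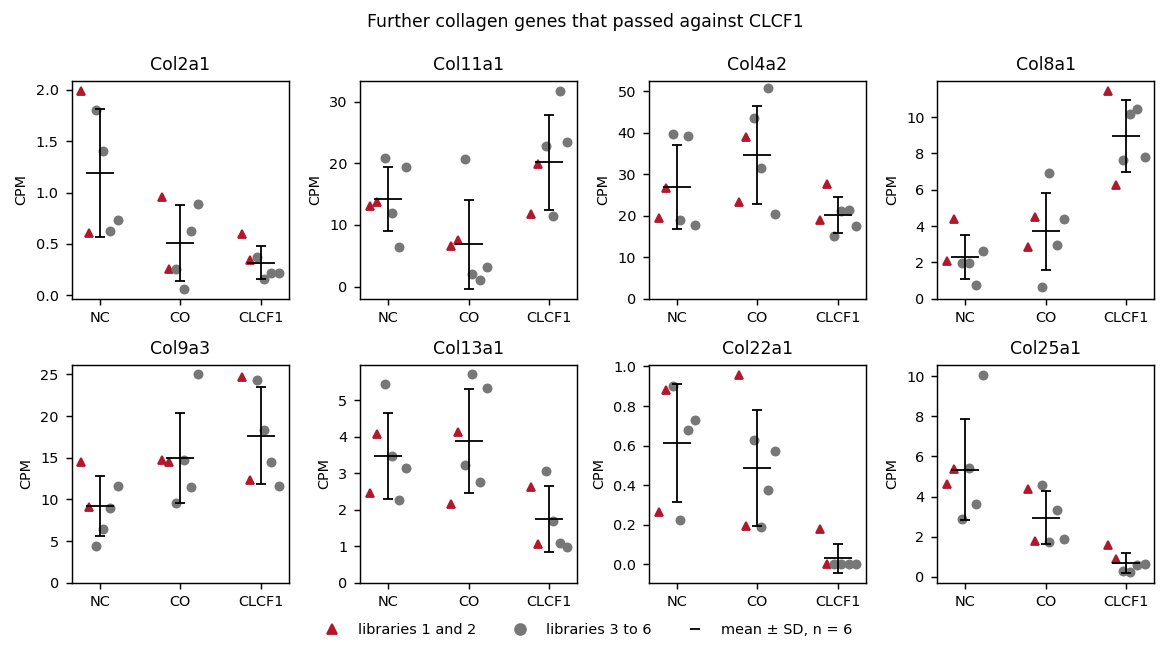
CPM (y axis) by library of 8 more collagen genes that passed between CLCF1 and CO or NC, with libraries 1 and 2 as red triangles, libraries 3 to 6 as gray circles, and black marks for mean ± SD (n = 6). Every CLCF1 library of Col25a1 and Col22a1 lies below every NC and CO library, and every CLCF1 library of Col8a1 lies above every NC library. For Col22a1 the gap is narrow, since CLCF1 library 1 and CO libraries 2 and 4 each hold 3 counts and differ only by scaling.

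Between CLCF1 and NC, 2 of 37 collagen genes rose, 4 fell and 31 did not pass, or 16.2% called, where 9.26% of all genes tested were called, 4.43% higher and 4.84% lower. Besides Col8a1, Col22a1 and Col25a1, these were Col9a3, Col2a1 and Col16a1. The median log2 fold change was -0.25, against 0.01 over all genes tested, and -0.33 in libraries 1 and 2 alone. Ranges lay apart for 2 of 37 higher and 6 lower, where 5.63% of all genes lay apart, 2.73% higher and 2.90% lower. In libraries 1 and 2 alone they lay apart for 3 higher and 9 lower, where 15.5% and 11.7% of all genes did. Col16a1 had 16.04 to 22.6 CPM in CLCF1 (median 17.9), below every NC library (log2 fold change -0.67 ± 0.17, edgeR adjusted p = 0.0171), and was at -0.03 against CO (edgeR adjusted p = 0.922). Its call against NC was kept without any 1 library, and libraries 1 and 2 alone gave -0.55.

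Col2a1, the fibrillar collagen of cartilage, was rare, with 124 counts over NC and 35 over CLCF1. It had 0.602 to 1.99 CPM in NC (median 1.07) and 0.163 to 0.596 in CLCF1 (median 0.279), with no overlap (log2 fold change -1.88 ± 0.51, edgeR adjusted p = 0.0274, and -1.48 in libraries 1 and 2 alone). Col9a3, a type IX chain, had 4.39 to 14.5 CPM in NC (median 9.03) and 11.6 to 24.7 in CLCF1 (median 16.4), with overlap (log2 fold change 0.94 ± 0.28, edgeR adjusted p = 0.0423, and 0.64 in libraries 1 and 2 alone). For Col2a1 the call ended on leaving out any of NC libraries 1 or 3 or CLCF1 libraries 4, 5 or 6 (edgeR adjusted p 0.0548 to 0.0575). For Col9a3 the call ended on leaving out any of NC libraries 2, 3, 4, 5 or 6 or CLCF1 libraries 1, 3, 4 or 5 (edgeR adjusted p 0.0503 to 0.0893). Of the genes that had fallen in CO, Col1a2 stood at -1.18 ± 0.60 against NC (edgeR adjusted p = 0.231), Col1a1 at -0.36 ± 0.37 (edgeR adjusted p = 0.593) and Col4a5 at 0.01 (edgeR adjusted p = 0.993). Col27a1, at -0.63 ± 0.21, did not pass either (edgeR adjusted p = 0.0608), though every CLCF1 library lay below every NC library, and against CO it was at 0.21 (edgeR adjusted p = 0.523). Col4a6, Col9a2 and Col12a1 were at -0.30, -0.25 and -0.13 against NC and did not pass. Of all genes tested, 4.84% were lower in CLCF1 than in NC and 4.43% higher. Beside these collagens, 3 of 14 pericyte and smooth muscle markers (Rgs5, Tagln and Notch3), 2 of 8 astrocytic markers and 1 of 8 ependymal markers were lower in CLCF1 than in NC. Among 17 fibroblast, 10 neuronal and 8 microglial markers 1 each was higher, and no endothelial or oligodendrocyte marker passed. Their part in the collagen values was not tested.

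In all, 16 of the 37 genes passed in at least 1 comparison and 21 in none. The 21 include Col3a1, the type IV chains Col4a1 and Col4a4, the type V chains Col5a1, Col5a2 and Col5a3, and the type VI chains Col6a1, Col6a2 and Col6a6. Their log2 fold changes ran from -0.99 to 1.35 between CO and NC, from -0.71 to 1.24 between CLCF1 and CO and from -1.15 to 1.68 between CLCF1 and NC. Col4a4 had group means of 8.24 to 8.31 CPM. Besides Col1a1, Col3a1, Col11a1 and Col8a2, described above, other genes gained a call when 1 library was left out (edgeR adjusted p from 0.0325 to 0.0496). Between CO and NC they were Col5a2 (NC 4 or CO 6), Col9a1 (NC 1 or 3), Col9a3 (NC 1) and Col26a1 (CO 2). Between CLCF1 and NC they were Col13a1 (CLCF1 1 or 3), Col18a1 (NC 1 or 6), Col20a1 (CLCF1 2), Col24a1 (NC 5) and Col8a2 (CLCF1 5), and Col9a2 passed between CLCF1 and CO without CLCF1 library 1. Col11a2, a chain of type XI collagen, had 76.9 ± 18.4 CPM in NC, 75.7 ± 13.3 in CO and 58.0 ± 18.5 in CLCF1.

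Of the 5 genes with too few counts to test, Col15a1, a basement membrane collagen of vessels and muscle, had 8 counts over NC, 91 over CO and 40 over CLCF1. Each CO library (0.387 to 3.05 CPM) lay above every NC library (0 to 0.170 CPM), and library 6 held 48 of the 91 counts. Col28a1, a collagen of peripheral nerve, had 32 counts over NC, 8 over CO and 227 over CLCF1, where library 1 had none and library 2 had 89. Col6a5 had 25, 23 and 0 counts and was at least 8.62-fold lower in CLCF1 than in NC and at least 8.95-fold lower than in CO. Col10a1, the collagen of growth plate cartilage, had 4, 14 and 0 counts and was at least 5.45-fold lower in CLCF1 than in CO. Col6a4 had 12, 0 and 18 counts, at least 3.54-fold lower in CO than in NC. For these bounds a group without counts was given 3 in all, and the total of the other group was taken as exact. The bounds thus cover counting error of the group at 0 alone, and the intervals given for Col22a1 cover counting error only. In the groups at 0, libraries 1 and 2 had no count and neither had libraries 3 to 6, as for all 42660 such cases.

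Genes that act on collagen chains before and after secretion were listed beside them. Of 29 genes of chain processing, cross-linking and secretion, 3 rose in CO, 3 fell and 23 did not pass (20.7% called, against 12.7% of all genes), with a median log2 fold change of -0.22. The prolyl 4-hydroxylase genes P4ha1 and P4ha3, whose products stabilise the helix, rose by 0.52 ± 0.14 and 0.95 ± 0.24 (edgeR adjusted p = 0.0229 and 0.0145). Adamts14, a protease that trims procollagen ends, fell by 3.15 on the log2 scale (edgeR adjusted p = 0.00337). Pcolce, an enhancer of procollagen processing by other proteases, fell by 1.03 (edgeR adjusted p = 0.00634). In libraries 1 and 2 alone the 4 values were 0.37, 0.81, -2.04 and -0.71. Between CLCF1 and CO, Adamts14 and the collagen chaperone gene Serpinh1 rose by 2.94 and 0.56, P4ha1 fell by 0.48 and 26 did not pass (10.3% called, against 17.0% of all genes). Against NC, Pcolce was lower in CLCF1 (-0.75) and 28 did not pass (3.45% called, against 9.26% of all genes).

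Of 13 genes of collagen breakdown tested, 2 fell in CO, 1 rose and 10 did not pass (23.1% called, against 12.7% of all genes). Mmp14, a membrane collagenase (-1.38), and Ctsk, a lysosomal collagenase (-0.60), fell, and Timp1, an inhibitor of metalloproteinases, rose (0.80). Libraries 1 and 2 alone gave -0.96, -0.40 and 0.39 for the 3. Mmp14 and the gelatinase gene Mmp2 were higher in CLCF1 than in CO (1.80 and 0.82), and Timp4 was lower (-0.74), with 1.26, 0.69 and -0.59 in libraries 1 and 2 alone. Called were 23.1% of the 13, against 17.0% of all genes. Against NC, Mmp9 was higher in CLCF1 (0.87) and Timp4 lower (-1.15), or 15.4% called, against 9.26% of all genes. Of 8 collagen receptor genes tested, 1 fell in CO and 7 did not pass (12.5% called, where 12.7% of all genes were called and 6.40% were lower). It was Ddr2, a receptor tyrosine kinase that binds fibrillar collagen, which fell from 14.2 ± 13.4 CPM in NC to 2.67 ± 1.51 in CO (a log2 fold change of -2.41 ± 0.50 with an edgeR adjusted p = 0.00518, and -0.98 in libraries 1 and 2 alone). Ddr2 and the integrin gene Itga10 were higher in CLCF1 than in CO (1.71 and 1.88), and Itga10 also than in NC (2.14). Called were 25% of the 8 against CO (17.0% of all genes) and 12.5% against NC (9.26% of all genes).

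Of 15 genes tested whose matrix products bind collagen, 6 fell in CO, 1 rose and 8 did not pass (46.7% called, against 12.7% of all genes). The median was -0.49, or -0.51 in libraries 1 and 2 alone. Some genes, Dcn among them, stand in more than 1 of the lists, so the shares called of different lists are not separate counts. The small proteoglycan gene Dcn, whose product binds type I fibrils and which is also among the fibroblast markers, fell by 1.24 on the log2 scale (standard error 0.18, edgeR adjusted p = 0.000865), and Tnxb, a tenascin gene, fell by 1.19 (standard error 0.28, edgeR adjusted p = 0.0112). Thbs2 fell by 1.41 (standard error 0.24, edgeR adjusted p = 0.00140) and Thbs1 rose by 1.39 ± 0.33 (edgeR adjusted p = 0.0118), 2 thrombospondins that moved in opposite directions. In libraries 1 and 2 alone Dcn, Tnxb, Thbs2 and Thbs1 were at -0.86, -0.82, -1.14 and 1.51. Between CLCF1 and CO, 5 of the 15 rose and 0 fell (33.3% called, against 17.0% of all genes), Dcn by 1.10 and Thbs2 by 1.29 among them. Against NC all 15 did not pass, where 9.26% of all genes were called.

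Of 16 other basement membrane genes, 7 fell in CO, 0 rose and 9 did not pass (43.75% called, against 12.7% of all genes). The median was -0.57, or -0.53 in libraries 1 and 2 alone. Nid1, whose product links laminin to type IV collagen, fell from 72.1 ± 62.1 CPM in NC to 17.8 ± 9.19 in CO (a log2 fold change of -2.02 ± 0.48 with an edgeR adjusted p = 0.0112), and libraries 1 and 2 alone gave -0.89. The laminin genes Lamc3, Lama4 and Lama2 fell by 1.45, 1.20 and 1.17 (edgeR adjusted p = 0.00577, 0.0150 and 0.0258), and by 1.09, 0.64 and 0.93 in libraries 1 and 2 alone. Between CLCF1 and CO, 5 of the 16 rose and 0 fell (31.25% called, against 17.0% of all genes), with Lama2 at 1.69, Nid1 at 1.87 and Lama4 at 1.03. Against NC, the secreted calcium-binding gene Smoc1 was higher in CLCF1 (1.77) and 15 did not pass (6.25% called, against 9.26% of all genes).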

How the data were processed

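For each of 18 libraries the authors deposited unnormalized counts by gene, as whole numbers, in 1 table with gene symbols, biotypes and gene lengths in bases. The aligner, the counter and strandedness are not stated in the labels. The submitters' processing notes name only mouse genome builds, though gene IDs are of rat, so positions are printed without a build. Column names carry group and library number as in the sample titles.

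The test on these counts was edgeR's (version 4.0.16, R 4.3.3; TMM scaling, filterByExpr with defaults, 1 robust quasi-likelihood fit of all 18 libraries, Benjamini-Hochberg adjustment over 16581 genes). The common dispersion was 0.0972. CPM used TMM-scaled library sizes with no prior count, and levels were set side by side across genes only after division by gene length. Alternatives used DESeq2 1.42.0 and limma 3.58.1. Replicate pairs differed by more than sampling noise (chi-square per degree of freedom 42.2 to 76.7).

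Collagen genes passing in any comparison, and Col1a1, Col1a2, Col3a1, Col4a1 and Col4a2, were to be given in full, and at most 4 genes per comparison from each other list. The members and the 14 lists (178 of 191 symbols found) were chosen with earlier results of these data known. Basement membrane collagens are types IV, XV and XVIII.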

Additional observations from a re-analysis of the deposited data

Results flagged for a closer look

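Single libraries stood far from the other 5 of their group for 7 of 63 gene-and-group sets examined. The cut-off marks about 1 in 20 sets of normally distributed values. CPM values need not be so distributed, and some genes were added after their values were seen. The 7 therefore cannot be set against a chance rate. Col3a1 had 269 CPM in CO library 5, where the next highest CO library had 49.4. Col8a2 had 52.9 CPM in CO library 3, against 11.8 for the next, and Col11a1 had 20.7 CPM in the same library, against 7.54. Col15a1 had 3.05 CPM in CO library 6, against 0.699, and Col9a3 had 25.1 CPM there, against 14.7. Col25a1 had 10.1 CPM in NC library 6, against 5.45, and without it the log2 fold change of CLCF1 against NC was -2.66 (edgeR adjusted p = 0.00222). Col22a1 had 0.179 CPM in CLCF1 library 1, from 3 counts, and 0 in the others. All 7 were the highest library of their group, and 6 of the 7 were among libraries 3 to 6. Col8a2, Col15a1 and Col28a1 were added to the genes examined after their values were seen.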

How the results depend on the processing

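All 22 calls of single collagen genes kept their sign under each alternative that gave a value. DESeq2, DESeq2 size factors, library size alone as scaling and no filter kept all 22 past the threshold, limma-voom with quality weights 17, the stricter filter 18 of 19, fits of only the 2 groups compared 14 of 20, and the replicate block 19. With only the 2 groups compared, the calls that ended were Col1a1, Col4a5 and Col4a6 between CO and NC (edgeR adjusted p = 0.0547, 0.0646 and 0.0524), Col11a1 and Col12a1 between CLCF1 and CO (0.0833 and 0.0512) and Col9a3 between CLCF1 and NC (0.0572). With limma-voom they were Col4a6, Col9a2 and Col12a1 between CO and NC (limma adjusted p = 0.0551, 0.0830 and 0.0670) and Col4a2 and Col12a1 between CLCF1 and CO (0.0624 and 0.0954). The stricter filter ended that of Col9a3 (edgeR adjusted p = 0.0523). Leaving out 1 library cost 12 of the 22 a call at least once. Libraries 3 to 6 alone kept 6 and libraries 1 and 2 alone 0.

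Against 8, 8 and 6 collagen genes passing (CO against NC, CLCF1 against CO, CLCF1 against NC), leaving out 1 library gave 5 to 8, 4 to 8 and 4 to 7. The lowest counts came without NC library 5 or 6 or CO library 6 (5 each), and without CLCF1 library 2 or 3 (5 each) or 5 or 6 (4 each) against CO. Libraries 1 and 2 alone gave 0, 0 and 0, and 3 to 6 alone 1, 3 and 3. Over all genes, the 2110, 2814 and 1536 called became 4, 8 and 2, and 918, 1436 and 736. Fits of only the 2 groups compared gave 5 and 5 in the first 2 comparisons. For CLCF1 against NC, no filter gave 12, the stricter filter 3, DESeq2 11 and limma-voom 10. Over all genes, no filter called 4291, 5645 and 4292, and for CLCF1 against NC DESeq2 called 2334. No filter also called Col15a1 higher in CO than in NC and Col28a1 higher in CLCF1 than in CO (edgeR adjusted p = 0.00423 and 0.00330). The cause of these differences was not tested, beyond the fewer samples or other genes that some of them take in.

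With the library number as a replicate block, 6, 7 and 7 collagen genes passed, and the calls lost were Col1a1 and Col4a6 between CO and NC (edgeR adjusted p = 0.0584 and 0.0530) and Col12a1 between CLCF1 and CO (0.0637). Same-numbered libraries deviated together little. Correlations ran from 0.004 to 0.15 for libraries 1 and 2 and from -0.03 to 0.02 for libraries 3 to 6. In 11 of 36 pairings of a library with another group, its own number among the 6 correlated best. The correlations were low, and the numbers were not taken as pairs. Genes with few counts, such as Col22a1, Col2a1 and the 5 untested, are limited by depth.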
